A study of Homo sapiens with 2 samples.

Results

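The genes described here encode the 4 classical systems of axon guidance cues and their receptors: semaphorins with plexins, ephrins with Eph receptors, slits with roundabouts, and netrins with UNC5 receptors. They were taken from the array by gene symbol. A probe set, the group of short probes that reads a transcript on an Affymetrix array, had to carry exactly 1 gene symbol. That symbol had to begin with SEMA, PLXN (subfamilies A to D), EFNA, EFNB or UNC5, or to be EPHA, EPHB, ROBO, SLIT or NTN with a number. The rule took 68 of 19775 genes, read by 156 of 41097 probe sets with 1 symbol. Of the 68, 35 were ligands and 30 receptors. The other 3 (UNC50, UNC5CL and UNC5B-AS1) matched the prefix only and were left out of the counts, so that 65 guidance genes remained. UNC50, the only one of the 3 past the filter on brightness, had values of 9.05 (mock) and 8.46 (syk).

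The arrays came from Panc1, an established human line from a pancreatic ductal adenocarcinoma. A stable population transfected with the vector alone (Panc1/mock) was compared with a stable population transfected with wild-type syk (Panc1/syk-wt), the gene of the non-receptor tyrosine kinase SYK. The series title calls the mock cells drug-resistant. Both populations were grown under hygromycin and kept subconfluent in the same way. Each was hybridised to 1 array, which leaves each value unreplicated. No test was possible, and population, RNA preparation and array cannot be told apart. Values are log2 RMA intensities, and differences are syk minus mock on that log2 scale. Each gene is represented by the brightest of its probe sets, averaged over the arrays, unless another is named.

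Guidance cues are secreted or membrane-bound proteins that attract or repel growing axons and migrating cells by acting on the cytoskeleton through their receptors. Plexins bind semaphorins, often together with neuropilins. Eph receptors are receptor tyrosine kinases that bind membrane-anchored ephrins on neighbouring cells, so that both cells can signal. Roundabouts bind slits, and UNC5 receptors and DCC bind netrin-1. The same families act outside the nervous system, in vessels and epithelia, and in pancreatic cancer they have been studied for their part in invasion and nerve contact.

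The label check on these arrays was weak. The brightest SYK probe set read 4.27 on mock and 4.73 on syk, and its 3 other probe sets differed by -0.27, -0.07 and -0.09, so the directions given here depend on the labels, with no check from SYK itself. All 8 epithelial and ductal markers were past the filter, including KRT18 (13.3 and 13.1) and KRT8 (11.1 and 10.3), while none of the endothelial or leukocyte markers measured exceeded 4.77 on either array. That level, 4.77, was the highest value among 27 control probe sets against bacterial transcripts and is used below as a floor for dim signal. Of the 2 Schwann markers measured, SOX10 exceeded it on both arrays (5.78 and 5.61) and S100B on neither. Probe sets at the 3′ end of ACTB exceeded those at its 5′ end by 1.95 on mock and by 2.37 on syk, a measure of RNA quality. Its part in the differences below was not tested.

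Guidance genes were lower on the syk array far more often than higher. A difference of 2-fold or more was seen in 8 of the 65 genes, and all 8 were lower on syk. They were the receptor tyrosine kinase EPHA7, the secreted semaphorins SEMA3F and SEMA3C, the transmembrane semaphorin SEMA4B, netrin-4 (NTN4), SLIT3, plexin-D1 (PLXND1) and UNC5C. All 8 had values above 4.77 on both arrays, so none of their folds is a bound. Counts below cover the 43 of 65 genes whose chosen probe set averaged 4.25 or more, a filter set at the 50th percentile of the array. For 41 of the 43 both arrays were at or above that level, and the 8 genes are among the 41. The 8 make up 18.6% of the 43, against 3.65% of the 12814 genes that pass this filter on the whole array. At least 2-fold higher values were seen in 0 of the 43, against 3.61% of all genes. Without a filter the share was 12.3% of the 65 against 2.44% of all 19775 genes. At 1.5-fold, 15 of the 43 were lower and 2 higher, against 10.5% and 12.2% of all genes. In all, 34 of the 43 differences lay below 0 and their median was -0.35, while 47.8% of all genes lay below 0, with a median of 0.01. All members were read from the same pair of RNA samples and are not independent measurements of the condition.

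**Figure D1:**
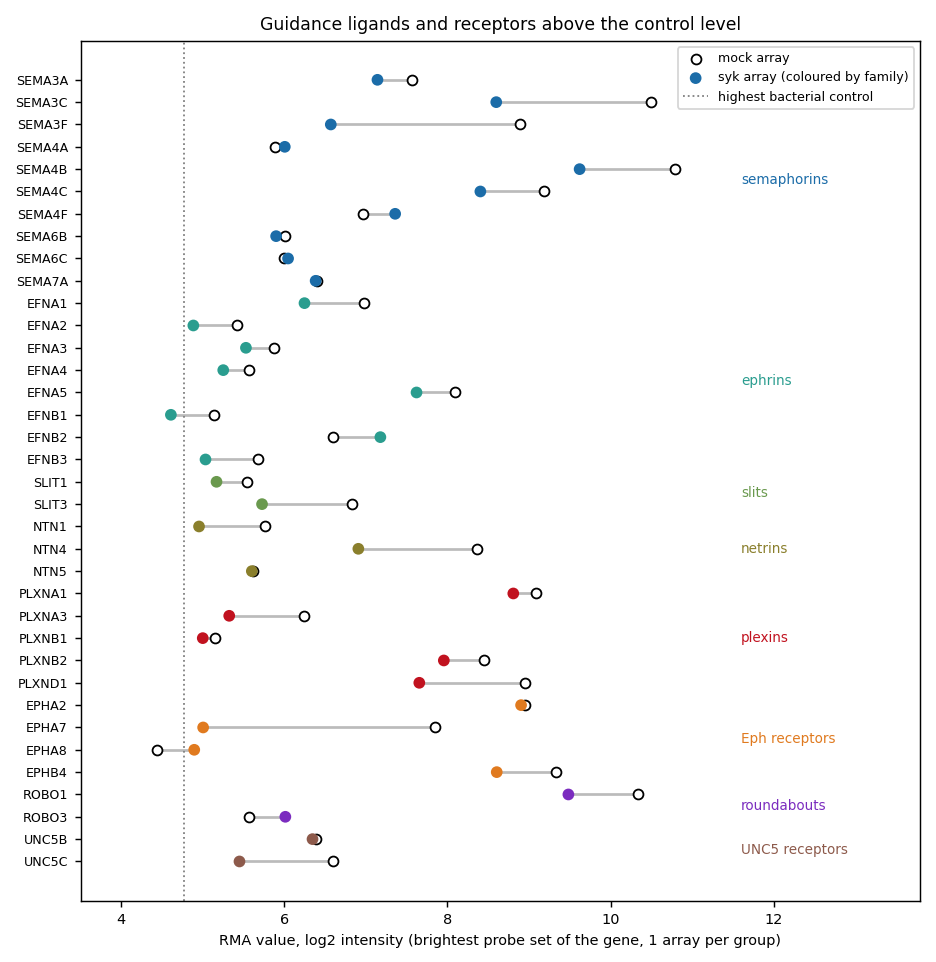
Log2 RMA value of each of the 36 guidance genes with a value above 4.77 (dotted line, the highest bacterial control) on at least 1 array: open circles are the mock array, filled circles the syk array, coloured by family, 1 array per group. The filled circle lies to the left of the open one for most genes, farthest for EPHA7 (7.84 and 5.0) and SEMA3F (8.89 and 6.57).

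Dim members add little either way. Of the 65 genes, 34 had values above 4.77 on both arrays, 2 on 1 array (EFNB1 and EPHA8), and 29 on neither. Of the 34, 29 differed below 0 (85.3%), against 47.6% of the 11047 genes that exceeded the floor on both arrays, and 8 (23.5%) were at least 2-fold lower, against 3.39%. The 29 dim genes ranged from 2.71 to 4.74. They were EPHA1, EPHA3, EPHA4, EPHA5, EPHA6, EPHA10, EPHB1, EPHB3, EPHB6, NTN3, PLXNA2, PLXNA4, PLXNB3, PLXNC1, ROBO2, ROBO4, SEMA3B, SEMA3D, SEMA3E, SEMA3G, SEMA4D, SEMA4G, SEMA5A, SEMA5B, SEMA6A, SEMA6D, SLIT2, UNC5A and UNC5D. No fold is given for them. The share of lower genes was greater among bright members: 5 of 16 with a mean at or above the 75th percentile (6.59) were at least 2-fold lower, against 3.31% of all genes there. Between the 50th and the 75th percentile it was 3 of 27, against 4.22%.

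The upstream sequence of the 3 genes with the largest differences, and of EFNB2, the ephrin that was higher on the syk array, is shown because these genes carry the contrast within the set. Sequences are the 250 bases before a RefSeq start site in GRCh38.p14, 5′ to 3′ on the gene's strand, with matches to the GC box (GGGCGG on either strand) in capitals. The EPHA7 window is chr6:93419560-93419809 on the minus strand, the SEMA3F window chr3:50154808-50155057 on the plus strand, and the EFNB2 window chr13:106535663-106535912 on the minus strand. SEMA3C has a distal window, chr7:80922390-80922639, and a proximal one, chr7:80919052-80919301, both on the minus strand. The arrays do not show which start was used.
EPHA7: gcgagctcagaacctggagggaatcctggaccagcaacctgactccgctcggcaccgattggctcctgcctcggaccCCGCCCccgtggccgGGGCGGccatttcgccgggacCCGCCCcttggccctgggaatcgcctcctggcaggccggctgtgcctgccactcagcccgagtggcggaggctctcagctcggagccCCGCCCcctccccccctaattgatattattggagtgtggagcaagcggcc
SEMA3F: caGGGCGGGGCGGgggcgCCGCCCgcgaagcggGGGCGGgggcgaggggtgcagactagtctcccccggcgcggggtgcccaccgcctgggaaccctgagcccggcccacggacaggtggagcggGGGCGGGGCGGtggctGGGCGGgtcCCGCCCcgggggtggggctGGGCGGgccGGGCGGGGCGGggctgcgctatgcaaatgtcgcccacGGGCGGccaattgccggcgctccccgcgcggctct
SEMA3C distal: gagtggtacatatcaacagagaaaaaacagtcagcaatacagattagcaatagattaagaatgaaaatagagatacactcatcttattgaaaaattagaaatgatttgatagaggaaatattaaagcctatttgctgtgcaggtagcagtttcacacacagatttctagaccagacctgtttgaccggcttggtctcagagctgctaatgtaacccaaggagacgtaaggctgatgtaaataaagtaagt
SEMA3C proximal: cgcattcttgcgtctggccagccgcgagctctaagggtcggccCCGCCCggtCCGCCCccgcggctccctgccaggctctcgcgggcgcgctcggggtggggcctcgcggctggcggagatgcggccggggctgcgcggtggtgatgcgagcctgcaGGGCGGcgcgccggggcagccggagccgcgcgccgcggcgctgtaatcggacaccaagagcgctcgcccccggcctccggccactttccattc
EFNB2: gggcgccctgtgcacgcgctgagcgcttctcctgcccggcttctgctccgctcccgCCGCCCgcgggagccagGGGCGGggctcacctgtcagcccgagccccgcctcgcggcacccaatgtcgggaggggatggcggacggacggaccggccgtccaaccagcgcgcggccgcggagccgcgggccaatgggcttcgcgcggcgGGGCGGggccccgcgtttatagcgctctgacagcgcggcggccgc

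The SEMA3F window shown held 12 GC box matches, counting overlapping ones, and its 2 further windows held 2 and 0. The EPHA7 window shown held 4, and its 2 further windows 1 each. The SEMA3C windows differed: the distal one had 0 GC boxes and 2 CpG dinucleotides, the proximal one 3 and 39. The EFNB2 window had 3 GC boxes, 40 CpG and 1 match to the TATA box, which lay on the opposite strand. Over all 35116 windows of this length, 42.6% held a GC box, and the median was 11 CpG. Of the 87 windows of the 56 guidance genes in the table, 70.1% held one, with a median of 17 CpG. Of the 16 windows of the 8 lower genes, 10 held one (62.5%), a share below that of all guidance windows. The interferon-stimulated response element (GAAANNGAAA), the core of the sterol regulatory element (CACCCCAC) and the E-box (CACGTG) were searched on both strands as well. None of the 16 windows of the 8 lower genes held any of these 3, which occur in 3.02%, 2.43% and 6.34% of all windows. The TATA box (TATAAA on either strand) was in 1 of the 16 windows, a second window of EPHA7 that is not shown. It was in 3.45% of guidance windows and in 10.7% of all windows. These matches describe letters only.

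Among the ligands, secreted semaphorins had the largest differences. Class 3 semaphorins are secreted and bind neuropilins, which pair with plexins to signal. SEMA3F, a repellent that uses neuropilin-2, read 8.89 on mock and 6.57 on syk, which is 5.0-fold lower. Its second probe set read 6.58 and 5.39, and another, with both values under the floor, 4.49 and 3.45. SEMA3C, a ligand of plexin-D1 in the developing heart and vessels, read 10.5 and 8.60, which is 3.71-fold lower, and its other probe set 6.01 and 4.56. SEMA3A, the founding collapsin, read 7.57 and 7.14, a difference of -0.43. All 3 of these genes were lower on the syk array, and the 4 other class 3 genes (SEMA3B, SEMA3D, SEMA3E and SEMA3G) were dim on both arrays.

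Transmembrane semaphorins went both ways. SEMA4B read 10.8 and 9.62, which is 2.24-fold lower, by its only probe set. SEMA4C, a ligand of plexin-B2, read 9.18 and 8.40 by its brighter probe set, but 6.81 and 6.88 by the other, so its 1.71-fold difference rests on 1 of 2 probe sets. SEMA4F was higher in all 3 of its probe sets, at 6.97 and 7.36 in the brightest, and SEMA4A read 5.89 and 6.0. The values of SEMA6B (6.01 and 5.90), SEMA6C (6.0 and 6.04) and SEMA7A (6.40 and 6.38), a GPI-anchored ligand of plexin-C1, nearly coincided on the arrays, although a second SEMA7A probe set, under the floor on both arrays, differed by 0.32. SEMA6A was dim by its brightest probe set, yet another of its 5 read 3.91 on mock and 4.92 on syk, a difference of 1.0. Of 14 semaphorins past the filter, 3 were at least 2-fold lower, 0 higher and 11 under 2-fold, with a median of -0.15.

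Ephrins had no difference of 2-fold, but most were lower on the syk array. A-type ephrins are GPI-anchored and B-type ephrins span the membrane. All 8 were past the filter, and 7 of them were below 0 by their brightest probe set, with a median of -0.50. Among all genes past the filter, 47.8% were below 0. EFNA1, a ligand of EPHA2, read 6.98 and 6.25, which is 1.66-fold lower. EFNA2 (5.41 and 4.88), EFNA3 (5.88 and 5.53) and EFNA4 (5.57 and 5.25) were lower by smaller amounts. EFNA5 read 8.09 and 7.62 by its brightest probe set, while 2 other probe sets differed by 0.13 and 0.26, so its direction is not settled. EFNB3 read 5.68 and 5.03 and EFNB1 5.13 and 4.61, the latter under the floor on syk. EFNB2, the ligand of EPHB4 in the parting of arteries and veins, was the exception, at 6.59 on mock and 7.18 on syk. Its other probe set read 5.89 and 6.93, a difference of 1.05, so that both sets placed EFNB2 higher on the syk array. The brighter set gives 1.5-fold.

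Of the 5 slits and netrins past the filter, secreted cues that also bind matrix, 2 were at least 2-fold lower on the syk array. SLIT3 read 6.83 and 5.73, which is 2.15-fold lower, and its second probe set 5.34 and 4.44. SLIT1 read 5.54 and 5.17, and SLIT2 was dim. NTN4, a basement membrane protein that binds laminin, read 8.36 and 6.91, which is 2.74-fold lower, by its only probe set. NTN1, the ligand of DCC and UNC5 receptors, read 5.76 and 4.95, which is 1.75-fold lower, although a second probe set, under the floor on both arrays, differed by -0.17. NTN5, at 5.61 and 5.60, differed by -0.01, a value whose sign turned with centring of the arrays (0.01). Put together, secreted ligands (class 3 semaphorins, slits and netrins) were at least 2-fold lower in 4 of 8 genes past the filter, with a median of -0.95, and membrane-bound ligands in 1 of 19, with a median of -0.32. The share at least 2-fold lower was 3.65% of all genes past the filter. This split was made after the values were seen, and the difference between the groups was not tested. All 8 secreted genes exceeded 4.77 on both arrays, whereas the membrane-bound SEMA4G, SEMA5A, SEMA5B and SEMA6A were dim on both. The groups thus differed in brightness, and the part of brightness in the split was not tested.

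**Figure D2:**
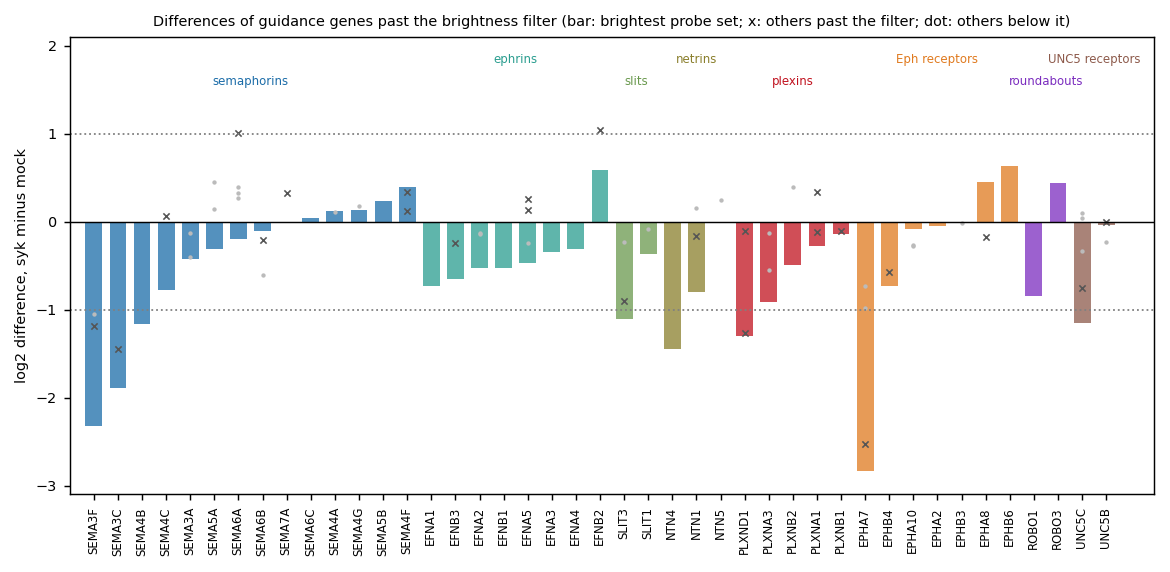
Log2 difference, syk minus mock, of the 43 guidance genes past the filter, by family: bars are the brightest probe set of a gene, crosses its other probe sets past the filter, and pale dots those below it. Dotted lines mark 2-fold. Bars reach from -2.84 (EPHA7) to 0.63 (EPHB6, dim on both arrays), and 8 pass the lower line.

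Among the receptors, EPHA7 stood farthest from 0. EPHA7, which binds A-type ephrins and has a truncated form that modulates adhesion, read 7.84 on mock and 5.0 on syk, which is 7.15-fold lower. A second probe set read 5.55 and 3.02, with the syk value under the floor. The 2 remaining sets were dim and differed by -0.99 and -0.73, so all 4 were below 0. Among the other Eph receptors above the floor on both arrays, EPHA2 and EPHB4, no value reached 2-fold. EPHA2, the receptor of EFNA1 and a kinase abundant in many carcinomas, read 8.95 and 8.90, a difference of -0.05. EPHB4, the receptor of EFNB2, read 9.34 and 8.60, which is 1.66-fold lower, and its other probe set differed by -0.57. EPHA8 read 4.44 and 4.89, with its other probe set at -0.18. The median of the 7 Eph receptors past the filter was -0.05, with 1 at least 2-fold lower. The ligand and receptor of the EFNB2 and EPHB4 pair thus lay on opposite sides of 0, at 0.59 and -0.73, while EFNA1 and EPHA2 lay at -0.74 and -0.05.

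All 5 plexins past the filter were below 0 by their brightest probe set, with a median of -0.49. Among all genes past the filter, 47.8% were below 0. PLXND1, the receptor of SEMA3E and, with neuropilins, of SEMA3C, read 8.95 and 7.65, which is 2.45-fold lower. Its second probe set read 8.03 and 6.77, while the dimmest, at 5.32 and 5.22, differed by -0.11. PLXNA3, which transmits SEMA3F signals together with neuropilin-2, read 6.24 and 5.32, which is 1.89-fold lower, just outside 2-fold. PLXNB2, the receptor of SEMA4C, read 8.45 and 7.96, and PLXNB1, the receptor of SEMA4D, 5.14 and 5.0. PLXNA1 read 9.08 and 8.81 by its brightest probe set, but 6.30 and 6.64 by the next, so its direction is not settled. The ligand SEMA3C and the receptor PLXND1 were therefore both at least 2-fold lower on the syk array.

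Roundabouts and UNC5 receptors had few readable members. ROBO1, the main slit receptor of many tissues, read 10.3 and 9.48, which is 1.80-fold lower, by its only probe set. ROBO3, a divergent roundabout of commissural axons, was higher, at 5.57 and 6.01, also by 1 probe set. UNC5C, a netrin-1 receptor of the dependence receptor type, which can promote cell death when no ligand is bound, read 6.60 and 5.45, which is 2.22-fold lower. Its second probe set read 5.61 and 4.86. UNC5B, a receptor of the same type found on endothelium, read 6.38 and 6.34. Of the 3 receptors with differences of at least 2-fold, each belonged to a different family.

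Ligands and receptors were alike in their shares. Of 27 ligands past the filter 5 (18.5%) were at least 2-fold lower, and of 16 receptors 3 (18.8%). Below 0 were 21 ligands and 13 receptors. The medians were -0.37 for ligands and -0.21 for receptors. Over genes above 4.77 on both arrays their order turned, with -0.45 for 22 ligands and -0.61 for 12 receptors. The data thus give no settled order between the classes, and with 1 array per population the difference was not tested.

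**Figure D3:**
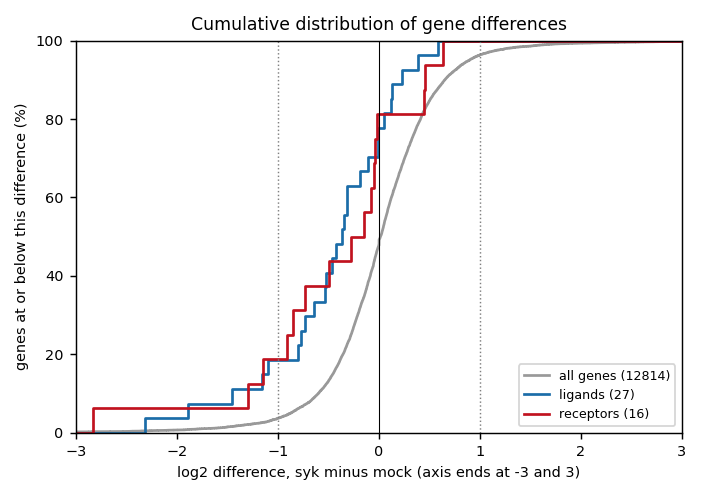
Cumulative share of genes (percent) at or below each log2 difference, syk minus mock, for all 12814 genes past the filter (grey), 27 ligands (blue) and 16 receptors (red). Both coloured curves lie to the left of the grey one over most of the range, with medians of -0.37 and -0.21 against 0.01.

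How far the probe sets of a gene agree is the only guide to precision here. In 6028 genes read by more than 1 probe set past the filter, the pooled SD of the difference between probe sets of 1 gene was 0.35. It covers probe behaviour and transcript variants, and no variation between cultures. The 8 genes past 2-fold differed by 1.10 or more. As they were picked for passing 2-fold, their distance from this SD is no measure of how sure they are. Of the 20 guidance genes read more than once in this way, 13 had a single sign. The 7 without a single sign were EFNA5, EPHA8, PLXNA1, SEMA4C, SEMA6A, SEMA7A and UNC5B, the last with 1 probe set at exactly 0. The widest range within a gene was 1.2, in SEMA6A. Counted over the 67 guidance probe sets past the filter, 12 were at least 2-fold lower and 2 higher, those of EFNB2 and SEMA6A. Of all 23066 probe sets with 1 symbol past the filter, 3.48% were lower and 3.33% higher by that much. The SEMA6A set was under the floor on mock and passed the filter through its syk value. With dim values raised to the floor, 11 guidance probe sets were lower and 1 higher. EPHA7, SEMA3C, SEMA3F, PLXND1, SLIT3 and UNC5C each had at least 1 further probe set past the filter on the same side, whereas NTN4 and SEMA4B had none. The further EPHA7 set (5.55 and 3.02) passed through its mock value, as its syk value lay below the filter level. Its side was thus partly fixed by the filter. SEMA3C, SEMA4B and SLIT3 were read by sets of the _s_at type, which can match several transcripts, and cross-hybridisation between paralogs was not analysed here. Just outside 2-fold lay PLXNA3, ROBO1 and NTN1 (-0.92, -0.85 and -0.81), and just inside SLIT3, UNC5C and SEMA4B (-1.10, -1.15 and -1.16).

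Some members lie near each other in the genome. In RefSeq gene order EFNA3 and EFNA1 are adjacent, with 1 gene between EFNA4 and EFNA3, and these 3 differed by -0.32 (EFNA4), -0.35 (EFNA3) and -0.74 (EFNA1). SEMA3C, SEMA3E, SEMA3A and SEMA3D follow each other, with 3 genes between SEMA3C and SEMA3E. SEMA3C and SEMA3A, the pair of them above the floor, differed by -1.89 (SEMA3C) and -0.43 (SEMA3A). The 2 others were dim and differed by -0.56 (SEMA3E) and -0.51 (SEMA3D). SEMA3B, near SEMA3F, and ROBO4, next to ROBO3, had the opposite sign to their neighbour, and both were dim. Around the 8 lower genes, the 3 nearest protein-coding genes past the filter on each side were looked up, a choice made after the values were seen. Of these 48 neighbours, 2 were at least 2-fold lower and 2 higher by their measured values, and their median was -0.09. Among all genes past the filter, 3.65% were lower and 3.61% higher by that much. With dim values raised to the floor, 1 neighbour (2.08%) was at least 2-fold lower and 2 (4.17%) higher. For all genes these shares were 3.34% and 3.08%, near those of the neighbours. SEMA3A, itself a guidance gene, is counted among the neighbours of SEMA3C. Below 0 were 30 of the 48 neighbours, against 47.8% of all genes past the filter. Around SEMA3C, PLXND1, UNC5C, SEMA3F, NTN4 and SLIT3 no neighbour passed 2-fold. Some came near it: around SLIT3, 5 of 6 were below 0, the lowest FBLL1 at -0.97. Around SEMA3F, 4 of 6 were below 0, the lowest GNAI2 at -0.96. Next to SEMA4B, the isocitrate dehydrogenase IDH2 read 8.98 and 7.64, which is 2.53-fold lower, and ARPIN, an inhibitor of the Arp2/3 complex, read 5.72 and 4.34, at least 1.94-fold lower against the floor. Beside EPHA7, the fucosyltransferase FUT9 went the other way, at 2.93 and 6.30, at least 2.90-fold higher, and NDUFAF4, a complex I assembly factor, was 2.05-fold higher. FUT9 passed the filter through its syk value, as its mock value lay below the filter level, so its side was partly fixed.

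**Figure D4:**
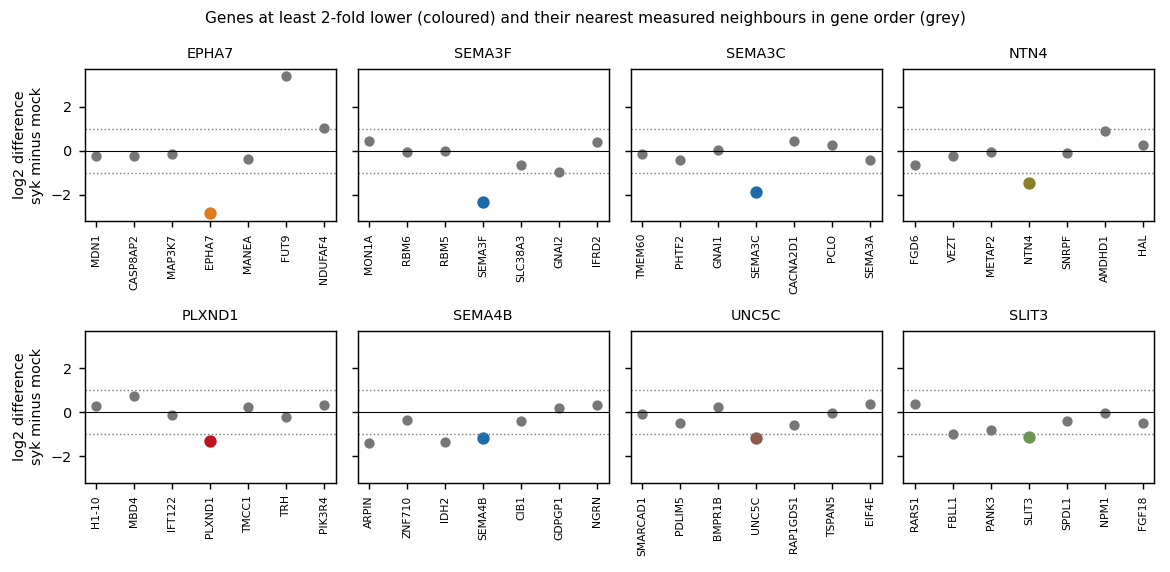
Log2 difference, syk minus mock, of the 8 guidance genes at least 2-fold lower (coloured) and of their 3 nearest measured neighbours on each side in RefSeq gene order (grey). Dotted lines mark 2-fold. Of the 48 neighbours 4 pass a dotted line, next to SEMA4B and EPHA7.

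The partners of these receptors were read from lists of coreceptors and effectors. Of 18 coreceptors and other cues past the filter, 2 were at least 2-fold lower and 2 higher by their measured values. Among all genes past the filter these shares were 3.65% and 3.61%. The median of the 18 was -0.10. Raising dim values to the floor left 1 of the 2 higher coreceptors and cues. Neuropilin-1 (NRP1), the coreceptor of SEMA3A and SEMA3C, read 7.77 and 6.69, which is 2.12-fold lower, with 1 of its 4 probe sets at 0.14. Neuropilin-2 (NRP2), the coreceptor of SEMA3F, read 5.38 and 5.46. L1CAM, an adhesion molecule that associates with neuropilin-1, read 9.43 and 4.25, at least 25.4-fold lower, with its second probe set at -0.57. FLRT3, which binds UNC5 receptors and ROBO1, went the other way, at 3.87 and 8.64, at least 14.6-fold higher. It passed the filter through its syk value, as its mock value lay below the filter level, so its side was partly fixed. Neogenin (NEO1), a netrin and RGM receptor, read 4.30 and 5.47, at least 1.63-fold higher against the floor. DCC, the main netrin-1 receptor of axons, was dim (3.30 and 3.51).

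Effectors of these receptors were read in lists of 16 to 19 genes past the filter. Beside the counts of genes at least 2-fold apart that follow stand 3.65% of all genes lower and 3.61% higher. With dim values raised to the floor, the shares lower were 10.5%, 16.7% and 6.25% in the order below, against 3.34% of all genes. Each share rests on 1 to 3 genes. Of 19 semaphorin and plexin effectors past the filter, 2 were lower and 1 higher, with a median of -0.24. The lower ones were the actin-oxidising monooxygenase MICAL2 (11.3 and 9.74, 2.91-fold) and the guanine nucleotide exchange factor FARP1 (7.31 and 5.64, 3.19-fold, with 1 of 5 probe sets at 0.17). The Src-family kinase FYN was at least 2.30-fold higher (4.56 and 5.97), with the lowest of its 5 probe sets at -0.25. Of 18 ephrin and Eph effectors, 3 were lower and 0 higher, with a median of -0.20. The 3 were NGEF, VAV2 and the kinase YES1 (10.1 and 8.99, 2.23-fold, with 1 of 3 probe sets at 0.05). NGEF, the exchange factor ephexin-1 that binds EphA receptors, read 7.93 and 6.33 (3.04-fold), with its second probe set at -0.38. VAV2, an exchange factor recruited by Eph receptors, read 7.25 and 6.16 (2.12-fold), with the highest of its 3 probe sets at -0.02. Of 16 slit, netrin and UNC5 effectors, 1 was lower and 0 higher, the actin-binding ABLIM3 (6.87 and 5.61, 2.39-fold), with a median of -0.17.

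Markers of other lineages were read beside these values, because guidance genes are also neural, epithelial and mesenchymal genes. Of the 8 neural markers, 5 were past the filter and all 5 were below 0, with a median of -0.55 and 0 past 2-fold. Among all genes past the filter, 47.8% were below 0. The 5 included TUBB3 (10.9 and 10.4), MAP2 (8.97 and 8.23) and SYT1 (7.17 and 6.63), while NEFL (3.04 and 3.01) and GAP43 (3.78 and 3.67) were dim on both arrays. RBFOX3, whose value is the median, was under the floor on both arrays, and its 3 probe sets ran from -0.55 to 0.48. Its brightest set passed the filter through its mock value, as its syk value lay below the filter level. The 3 probe sets of SNAP25 (4.90 and 4.29) ran from -0.61 to 0.12. Of the 8 epithelial and ductal markers, 6 were below 0 and 3 at least 2-fold lower (3.65% of all genes past the filter), with a median of -0.63. The 3 were KRT19 (10.9 and 9.44), MUC1 (7.31 and 6.27) and CDH1 (6.34 and 3.47, at least 2.98-fold lower). CDH1 passed the filter through its mock value, as its syk value lay below the filter level, so its side was partly fixed. The second probe sets of KRT19 and CDH1 differed by -0.37 and -0.46, under 2-fold. EPCAM (6.77 and 7.08) and SOX9 (11.0 and 11.4) were higher on syk. The log2 of the summed intensity of the 8 epithelial and ductal markers was 14.0 on mock and 13.7 on syk. For the neural list it was 11.3 and 10.8. Of 7 fibroblast and mesenchymal markers, 2 were past the filter, COL1A1 (11.2 and 10.1, 2.13-fold lower) and VIM (13.6 and 13.0), and the other 5 were dim. The summed level of that list was 13.9 and 13.2. Their part in the guidance differences was not tested. In bulk RNA, fewer cells with a transcript and less of it per cell cannot be told apart.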

How the data were processed

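The authors deposited log2 values for 54675 probe sets on each array, made with RMA per the submitters' processing notes, which give no version. RMA subtracts background, aligns the arrays by quantiles and summarises probes, and it compresses differences between dim probe sets. The log2 scale was taken from the values. Probe sets were named from the platform annotation, and 0 array columns were left unused.

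Subtraction of the mock value from the syk value was done in Python 3.11.15 with pandas 2.3.3. A gene took its brightest probe set. Neither a test nor an error could be had from 1 array per group. Genes named are all those at least 2-fold apart, all with a value above the floor, and the listed coreceptors and effectors at least 2-fold apart. The calculation was tested on simulated data with planted differences well past 2-fold, which does not test calls near that threshold. The members, lists, floor and alternatives were chosen with earlier results of these data known. Alternatives were 2 scalings, 3 choices of probe set, 3 filters, 2 floors and a 1.5-fold threshold. Upstream windows came from RefSeq, which held 56 of the 65 genes.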

Additional observations from a re-analysis of the deposited data

How the results depend on the processing

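The count of guidance genes at least 2-fold lower stayed within 1.5 times of 8 under every alternative but 3. It was 5 of 34 genes when only _at probe sets were read (14.7%, against 3.77% of all genes). Under a stricter filter (75th percentile) it was 5 of 16 (31.25%, against 3.31%). Both leave fewer genes, and the share fell in the first and rose in the second from 18.6%. At a 1.5-fold threshold it was 15 of 43 (34.9%, against 10.5%). The count of higher genes was 0, except 1 (SEMA6A) with _at probe sets alone and 2 at 1.5-fold. Under that stricter filter the median was -0.76 for ligands and -0.61 for receptors. The receptor median ranged from -0.61 to -0.07 and the ligand median from -0.76 to -0.34. Family medians, over few genes, ranged from -0.97 to -0.01 for semaphorins, -1.45 to -0.49 for netrins, -0.92 to -0.28 for plexins, -0.85 to -0.18 for roundabouts, -0.74 to -0.37 for slits, -0.59 to -0.34 for UNC5 receptors, -0.39 to 0 for Eph receptors and -0.53 to -0.40 for ephrins. All 8 named genes kept their sign under each alternative that gave a value. With the mean over probe sets, PLXND1 came to -0.89 and UNC5C to -0.95 (as with the median), both under 2-fold, and with _at probe sets alone SLIT3 came to -0.90. EFNA5 turned to 0.13 with the median over probe sets and PLXNA1 to 0.34 with _at probe sets alone. No paired analysis was possible because each group has 1 array. Signal near the bacterial controls limits what can be said of the 29 dim genes.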
